A study of Homo sapiens with 4 samples.

Results

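The 30 genes described here encode enzymes of cholesterol and fatty acid synthesis and the proteins that regulate them. They were chosen by symbol from a table of 60048 human genes, and all 30 were present, each in 1 row. They comprised 8 genes of the mevalonate arm, 11 of the squalene and sterol arm, 5 SREBP regulators and sterol carriers, and 6 genes of the fatty acid arm. The assay was EU-seq: cells take up 5-ethynyl uridine, and the RNA made during that time is captured and sequenced. The cells were HCT116, a human colorectal carcinoma line, of genotype RAD21-mAC, which carries a degron tag on RAD21, a core subunit of the cohesin ring. The control group was given DMSO (2 libraries). The auxin group (2 libraries) was given indole-3-acetic acid, at 0.5 mM over 3 h, so that the tagged RAD21 is degraded. Both groups carried the tag and were labelled with 0.5 mM EU for 20 min. No group received auxin without the tag, and the labels do not say whether the libraries of a group came from separate cultures, so p-values measure only the spread between these libraries. By its title, the study asks whether cohesin affects pause release and elongation by RNA polymerase.

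Cells make cholesterol from acetyl-CoA through mevalonate, isoprenoid pyrophosphates, squalene and a series of sterols, and they make fatty acids from the same precursor through malonyl-CoA. Both pathways are controlled by the SREBP transcription factors, which are held in the endoplasmic reticulum by SCAP and INSIG proteins when sterols are plentiful and are released to the nucleus when sterols are scarce. Their targets share sterol regulatory elements near the start site, usually beside binding sites of NF-Y (CCAAT boxes) and SP1 (GC boxes), and SREBP-2 acts mainly on sterol genes and SREBP-1 mainly on fatty acid genes.

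Promoters of 26 of the 30 genes were matched by symbol in a RefSeq table (GRCh38.p14), all but those of ACAT2, FDFT1, SQLE and FASN. The windows ran from 250 bases before to 50 bases after the start and were searched on both strands. A CCAAT box (CCAAT) was found in 16 of 26 promoters (61.5%), against 35.7% of 27305 promoters of the same length and 36.6% of the 15145 protein-coding ones. A GC box (GGGCGG) was found in 23 (88.5%, against 44.6% of all and 59.2% of protein-coding promoters), and an E-box (CACGTG) in 4 (15.4%, against 7.44% and 8.89%), those of LSS, SC5D, SCAP and INSIG1. The core of the sterol regulatory element, 10 letters long, was found in SREBF2 alone, where it reads ATCACCCCAC from 134 bases before the start. Any letter was allowed at position 6 of this core, and 0.154% of all promoters and 0.119% of protein-coding ones hold it. Elements that differ from it at another position were not searched for, so promoters without a match may still hold one. By arm, CCAAT boxes lay in HMGCS1, MVK, MVD and FDPS of the mevalonate arm, in all sterol-arm genes with a promoter except CYP51A1, in SREBF2, INSIG1 and STARD4 among the regulators, and in SCD alone of the fatty acid arm. No match of 1 motif overlapped a match of another in these promoters. These matches are descriptions of the letters only. The windows of IDI1, GGPS1 and FADS1 lie upstream of, and apart from, the spans over which their signal was measured. That of FADS2 ends at 61816252, just before its span, which begins at 61816256. The 250 bases before the start are printed 5′ to 3′ for 4 genes that stand for the 3 kinds of member: SREBF2 and INSIG1 as regulators, HMGCS1 as a sterol gene and SCD as the fatty acid gene with the largest difference reported below. Capitals mark the sterol regulatory element in SREBF2 and the CCAAT boxes (ATTGG on the opposite strand). The stretches are chr22:41832855-41833104 on the plus strand for SREBF2, chr7:155297628-155297877 on the plus strand for INSIG1, chr5:43313413-43313662 on the minus strand for HMGCS1 and chr10:100346983-100347232 on the plus strand for SCD.
SREBF2: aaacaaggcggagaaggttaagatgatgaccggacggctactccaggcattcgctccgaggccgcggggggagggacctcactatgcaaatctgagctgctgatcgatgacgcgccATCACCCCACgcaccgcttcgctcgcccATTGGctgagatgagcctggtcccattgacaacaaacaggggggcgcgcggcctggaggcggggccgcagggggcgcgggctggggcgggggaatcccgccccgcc
INSIG1: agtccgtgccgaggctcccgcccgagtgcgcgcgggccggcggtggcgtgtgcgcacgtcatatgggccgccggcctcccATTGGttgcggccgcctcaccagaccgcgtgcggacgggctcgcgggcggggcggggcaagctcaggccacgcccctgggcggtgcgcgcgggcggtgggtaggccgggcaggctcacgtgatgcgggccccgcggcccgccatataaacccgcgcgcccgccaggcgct
HMGCS1: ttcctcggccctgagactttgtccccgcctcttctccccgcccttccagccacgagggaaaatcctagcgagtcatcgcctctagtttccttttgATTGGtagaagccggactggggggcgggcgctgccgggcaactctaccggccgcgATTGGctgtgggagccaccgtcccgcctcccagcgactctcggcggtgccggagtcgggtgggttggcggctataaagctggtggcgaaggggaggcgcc
SCD: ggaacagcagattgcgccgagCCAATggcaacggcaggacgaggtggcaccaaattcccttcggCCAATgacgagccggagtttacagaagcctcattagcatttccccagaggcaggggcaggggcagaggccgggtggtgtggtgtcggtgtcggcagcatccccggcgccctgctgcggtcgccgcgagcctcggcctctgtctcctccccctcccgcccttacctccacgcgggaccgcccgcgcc

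The values were a scaled signal over the span listed for each gene, introns included, rather than counts of reads. Read depth is therefore unknown. For FADS1 and IDI1, both on the minus strand, the listed spans ended at 61806528 and 1049119. Their RefSeq promoter windows lay upstream, at 61816954 to 61817253 and 1056655 to 1056954. The span of GGPS1, on the plus strand, began at 235328438, past its window (235326966 to 235327265). Levels and overlaps of these genes hold for the listed spans only. The values given here were made comparable between libraries by trimmed means of M-values, a scaling that takes out a global shift in nascent RNA. Totals as deposited ran from 61135244 to 93113007 per library, both extremes being auxin libraries. RAD21 itself stood at 6172 ± 1439 without auxin and 6079 ± 262 with it (SD, n = 2 each), which does not check the labels, because the degron acts on protein. Of the markers of colon epithelium, EPCAM, CDH1, KRT8 and KRT18 carried at least 111 units of signal per kb in each group and CDX2 at least 178, VIL1 carried 23.8 in control and 21.0 in auxin, and KRT20 and CDX1 stayed below 4. Of 6 markers of other cells, COL1A1 carried 37.3 in control and 53.9 in auxin, and the other 5, COL1A2 included, stayed below 4. The summed signal of these 6 was 832 and 989 in control and 1171 and 1313 in auxin, and its part in the results was not tested. Of the 30 genes, 15 overlapped another gene of the table, and in this table opposite strands were not separated: genes nested on the opposite strand of a long gene held a median of 0.852 times its signal per kb (2572 genes), against 0.866 times on the same strand (1035 genes).

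All 30 genes carried signal in every library and passed the filter on low values. Per kb of span, which allows levels to be compared between genes, control means ran from 23.8 for HSD17B7 to 1172 for FASN, with a median of 161, against 53.0 over all genes tested and 79.4 over expressed coding genes (protein-coding, mean signal 50 or more). FASN (fatty acid synthase) and SCD (stearoyl-CoA desaturase, at 1059) led, followed by SREBF1 (SREBP-1, 611), FDPS (farnesyl diphosphate synthase, 481) and MVD (mevalonate diphosphate decarboxylase, 344). FASN and SCD overlapped each other's range across libraries, and the 4 libraries of SREBF1 lay below all those of SCD. At the low end, HSD17B7, a sterol ketoreductase, was followed by FADS2 (34.9) and ELOVL6 (54.6).

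**Figure D1:**
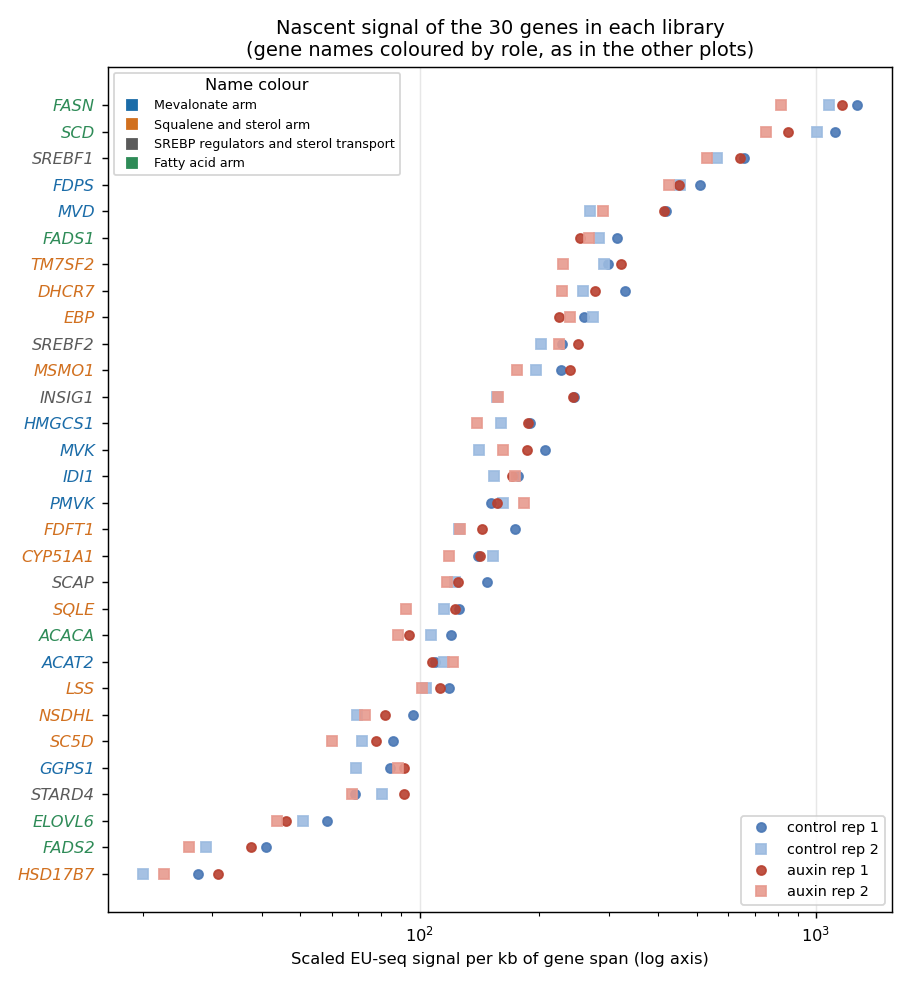
Scaled EU-seq signal per kb of gene span (log axis) for the 30 genes, ordered by control mean, with 1 point per library: circles are replicate 1, squares in a lighter shade replicate 2, blue control and red auxin. FASN and SCD lie highest and HSD17B7 lowest, and for most genes the points of the 2 groups interleave.

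After 3 h of auxin, none of the 30 genes passed the test. Over all 39464 genes tested, 289 had a limma adjusted p under 0.05, which is 0.732% (0.332% higher and 0.400% lower). The count among the members was 0, and the smallest adjusted p was 0.197, for SCD. At an unadjusted p under 0.05 there were 2 of 30 genes, SCD and ACACA, both lower, where 10.2% of all genes tested (4.75% higher and 5.47% lower) and 15.7% of expressed coding genes lay under that threshold. The 2 groups of libraries did not overlap for 7 genes, 1 higher and 6 lower, where 38.2% of all genes tested did not overlap (18.6% higher and 19.6% lower). Counted in either direction, both shares were below the background. Those lower, 2 and 6 of the 30, were close to the shares of all genes tested (5.47% and 19.6%). Neither count sets these genes apart. The median log2 fold change was -0.11 over the 30 genes, with 9 higher and 21 lower in sign. Over all genes tested the median was 0.0089, with 51.3% higher and 48.7% lower in sign. Without control replicate 1 the median of the 30 genes was 0.0096, with 14 of them lower. Without auxin replicate 2 it was 0.011, with 13 lower. Without control replicate 2 it was -0.23 and without auxin replicate 1 -0.19, each with 25 lower. The 95% intervals of all 30 genes lay within 2-fold in either direction, and those of 23 lay within 1.5-fold. A change of 2-fold or more therefore lay outside the interval of every member, taken 1 gene at a time. The interval held 0 for all members except SCD and ACACA.

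**Figure D2:**
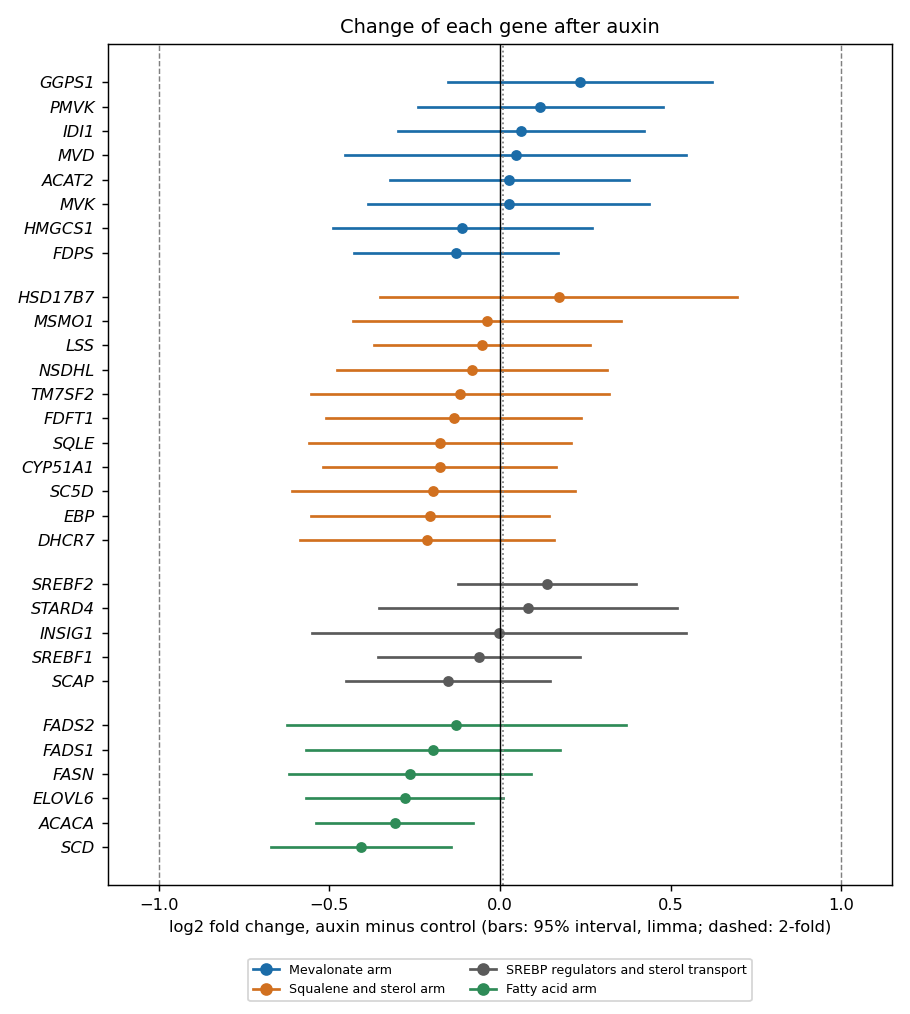
The log2 fold change of each gene, auxin minus control, with its 95% interval from limma (n = 2 libraries per group), grouped by role. The dotted line is the median of all genes tested (0.0089) and the dashed lines mark 2-fold. Only the intervals of SCD and ACACA leave out 0, before any adjustment, and all intervals lie inside the dashed lines.

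The mevalonate arm, which leads from acetoacetyl-CoA to farnesyl and geranylgeranyl pyrophosphate, had 6 genes higher and 2 lower in sign, none past the test, with a median log2 fold change of 0.037. Its sign turned with the library left out: leaving out control replicate 2 gave -0.13, and leaving out control replicate 1 gave 0.12. GGPS1 (ENSG00000152904, GRCh38 chromosome 1, 235328438 to 235344525, plus strand), which makes geranylgeranyl pyrophosphate, measured 1357 and 1111 in control replicates 1 and 2 and 1473 and 1418 in auxin replicates 1 and 2. Both auxin libraries lay above both control libraries. Its log2 fold change was 0.23 (SE 0.17, limma adjusted p = 0.769). Of its span, 99.2% lies inside a longer row named TBCE on the same strand, which measured 7929 in control and 9591 in auxin, so the signal of the 2 rows cannot be told apart. FDPS (ENSG00000160752, chromosome 1, 155308748 to 155320666, plus strand) measured 6079 and 5394 in control and 5389 and 5082 in auxin. Its groups did not overlap, but auxin replicate 1 and control replicate 2 nearly met, and the log2 fold change was -0.13 (SE 0.13, limma adjusted p = 0.870). RUSC1-AS1, a lncRNA gene on the opposite strand, covers 22.8% of FDPS and measured 1809 in control and 1883 in auxin. The other 6 genes of this arm had overlapping groups. HMGCS1, the HMG-CoA synthase that commits acetyl units to the pathway, measured 4920 and 4166 in control and 4856 and 3619 in auxin. MVK (mevalonate kinase) and MVD spread most: MVK ran from 3445 to 5033 within control and MVD from 2999 to 4666, wider than either gene's range within auxin. ACAT2 (acetoacetyl-CoA thiolase), PMVK (phosphomevalonate kinase) and IDI1 (isopentenyl diphosphate isomerase) had log2 fold changes of 0.027, 0.12 and 0.062. The lncRNA gene IDI2-AS1 covers 61.9% of IDI1 on the opposite strand.

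The squalene and sterol arm converts farnesyl pyrophosphate to squalene, lanosterol and cholesterol. Here 10 of 11 genes were lower in sign and none passed the test, with a median log2 fold change of -0.14 and a range from -0.21 to 0.17. Without auxin replicate 2 the median was 0.00077, and without control replicate 1 it was -0.027. DHCR7 (ENSG00000172893, GRCh38 chromosome 11, 71434411 to 71448393, minus strand), the reductase of the last step to cholesterol, measured 4617 and 3607 in control and 3865 and 3204 in auxin. The groups overlapped, and the log2 fold change was -0.21 (SE 0.17, limma adjusted p = 0.794). EBP (ENSG00000147155, chromosome X, 48521808 to 48528716, plus strand), a sterol isomerase, measured 1799.8 and 1892 in control and 1548 and 1656 in auxin. It was the only gene of this arm whose groups did not overlap (-0.20 on the log2 scale, SE 0.16, adjusted p = 0.787 by limma). EBP lies entirely inside AF196969.1 on the same strand, a row that measured 2498 in control and 2271 in auxin. SQLE (squalene epoxidase, a rate-limiting enzyme) measured 2989 and 2744 in control and 2923 and 2199 in auxin, and LSS (lanosterol synthase) 4814 and 4224 against 4572 and 4135. In both, auxin replicate 1 lay inside the control range. FDFT1 (squalene synthase), CYP51A1 (lanosterol demethylase), TM7SF2 (a sterol reductase), MSMO1 (sterol methyl oxidase), NSDHL (a sterol dehydrogenase) and SC5D (sterol desaturase) had log2 fold changes from -0.20 to -0.039, with overlapping groups. HSD17B7, at 610 and 444 in control and 687 and 501 in auxin, was the gene of this arm with a positive value (0.17, SE 0.24).

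None of the 5 regulators and sterol carriers passed the test, and the groups overlapped for all 5. Their median log2 fold change was -0.0028, and ran from -0.19 without auxin replicate 1 to 0.22 without auxin replicate 2. SREBF2 (ENSG00000198911, GRCh38 chromosome 22, 41833105 to 41907305, plus strand), which encodes SREBP-2 and holds the sterol regulatory element printed above, measured 17000.4 and 15063 in control and 18609 and 16683 in auxin. Auxin replicate 2 lay inside the control range, and the log2 fold change was 0.14 (SE 0.12, limma adjusted p = 0.820). SREBF1 (ENSG00000072310, chromosome 17, 17811356 to 17837011, minus strand) measured 16931 and 14405 in control and 16453 and 13620 in auxin, a difference of -0.061 in log2 (SE 0.13, adjusted p = 0.965 by limma). SCAP (ENSG00000114650, chromosome 3, 47413681 to 47475941, minus strand), the escort of the SREBPs, measured 9195 and 7655 in control and 7787 and 7314 in auxin (-0.15 on the log2 scale, SE 0.13, adjusted p = 0.836 by limma). INSIG1 (ENSG00000186480, chromosome 7, 155297878 to 155310235, plus strand), a retention factor of the SREBPs and an SREBP target, measured 3036 and 1940.3 in control and 3008 and 1951 in auxin. The group means, 2488 ± 775 and 2479 ± 748 (SD, n = 2 each), were close beside a wide spread, so the 95% interval of its log2 fold change of -0.0028 ran from -0.55 to 0.55. STARD4, a cytosolic sterol carrier, had a log2 fold change of 0.081 (SE 0.20).

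Each SREBP gene holds a microRNA in its span, MIR33A in SREBF2 and MIR33B in SREBF1, which are known to target cholesterol export and fatty acid oxidation genes. Their RefSeq mature sequences (GRCh38.p14) are printed with the seed, bases 2 to 8, in capitals, because the 2 hosts give rise to microRNAs of the same seed. They lie at chr22:41900949-41900969 on the plus strand and chr17:17813897-17813916 on the minus strand.
hsa-miR-33a-5p: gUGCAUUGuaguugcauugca
hsa-miR-33b-5p: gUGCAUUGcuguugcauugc
The table's row for MIR33A measured 26.9 without and 30.2 with auxin (0.25 on the log2 scale, adjusted p = 0.957 by limma), and that for MIR33B 40.1 and 38.8 (-0.13 on the log2 scale, adjusted p = 0.980 by limma). These rows count nascent signal over the hairpin and cannot be told apart from the host transcript, so they say nothing of mature microRNA.

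The fatty acid arm held the 4 lowest log2 fold changes of the 30 genes. All 6 genes were lower in sign, with a median log2 fold change of -0.27, and the groups did not overlap for 4 of them (19.6% of all genes tested were lower without overlap), but none passed the test over all genes. SCD (ENSG00000099194, GRCh38 chromosome 10, 100347233 to 100364826, plus strand), which introduces the double bond of oleate, measured 19597 and 17673 in control and 14951 and 13174 in auxin. Both auxin libraries lay below both control libraries. The log2 fold change was -0.41 (SE 0.12, 95% interval -0.67 to -0.14, unadjusted p = 0.00608, limma adjusted p = 0.197), or -24.6% on the linear scale. ACACA (ENSG00000278540, chromosome 17, 37084992 to 37406836, minus strand), the acetyl-CoA carboxylase that makes malonyl-CoA, has the longest span of the members, 321845 bases. It measured 38530 and 34295 in control and 30316 and 28397 in auxin, again without overlap. Its log2 fold change was -0.31 (SE 0.10, 95% interval -0.54 to -0.080, unadjusted p = 0.0132, limma adjusted p = 0.280).

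ELOVL6, the elongase that extends palmitate, measured 8921 and 7753 in control and 7035 and 6677 in auxin (-0.28 on the log2 scale, SE 0.13, adjusted p = 0.510 by limma). FASN measured 25216 and 21443 in control and 23105 and 16247 in auxin, so that auxin replicate 1 lay inside the control range and auxin replicate 2 below it. Its log2 fold change was -0.26 (SE 0.16, limma adjusted p = 0.677) with all libraries and -0.010 without auxin replicate 2. FADS1 and FADS2, the delta-5 and delta-6 desaturases, are neighbours on chromosome 11 and had log2 fold changes of -0.20 and -0.13. The groups of FADS1 did not overlap and those of FADS2 did. SCD, ACACA, ELOVL6, FASN and FADS1 kept a negative sign in all 12 alternative settings, and FADS2 turned positive when control replicate 1 or auxin replicate 2 was left out. No setting that kept all libraries changed a sign in this arm, and the replicate block cannot change one. Without 1 library at a time, the median of the arm ran from -0.38 to -0.15. The 24 other members had a median of -0.057. The difference between the arms was not tested.

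The other genes of lipid supply, sensing and transport, 28 in all, likewise held none past the test, with 9 higher and 19 lower in sign and a median log2 fold change of -0.085. At an unadjusted p under 0.05, 2 were higher (NPC1 and MYLIP) and 3 lower (TMEM97, ELOVL5 and INSIG2), where the share over all genes tested was 4.75% higher and 5.47% lower, and 15.7% of expressed coding genes in either direction. The 3 with the smallest p were TMEM97, NPC1 and ELOVL5. TMEM97 (ENSG00000109084, GRCh38 chromosome 17, 28319200 to 28328685, plus strand), an SREBP target that binds NPC1, measured 3189 and 3554 in control and 1887 and 2167 in auxin, a difference of -0.74 in log2 (SE 0.16, adjusted p = 0.0738 by limma). NPC1 (ENSG00000141458, chromosome 18, 23531442 to 23586506, minus strand), the lysosomal cholesterol exporter, measured 6663 and 6183 in control and 9200.5 and 9893 in auxin, a difference of 0.57 in log2 (SE 0.12, adjusted p = 0.0839 by limma). In neither gene did the groups overlap. The adjusted p of TMEM97 was 0.0448 without auxin replicate 2 and from 0.0878 to 0.244 without each other library in turn. ELOVL5, an elongase of polyunsaturated fatty acids, measured 5688 and 5461 in control and 4335 and 3875 in auxin (-0.44 on the log2 scale, SE 0.14, adjusted p = 0.228 by limma). Of the SREBP processing genes, INSIG2, a second retention factor, measured 1122 and 1649.6 in control and 873 and 1018 in auxin (-0.53 on the log2 scale, SE 0.21, adjusted p = 0.407 by limma). Its groups did not overlap. The proteases of SREBP cleavage, MBTPS1 and MBTPS2, had log2 fold changes of -0.15 and -0.038. MYLIP, an oxysterol-induced ubiquitin ligase for lipoprotein receptors, measured 1643 and 1411 in control and 2452 and 1989.8 in auxin, also without overlap (0.54 on the log2 scale, SE 0.17, adjusted p = 0.260 by limma). ACLY, which makes cytosolic acetyl-CoA, had a log2 fold change of -0.20, and the oxysterol receptor genes NR1H2 and NR1H3 had 0.099 and 0.13.

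**Figure D3:**
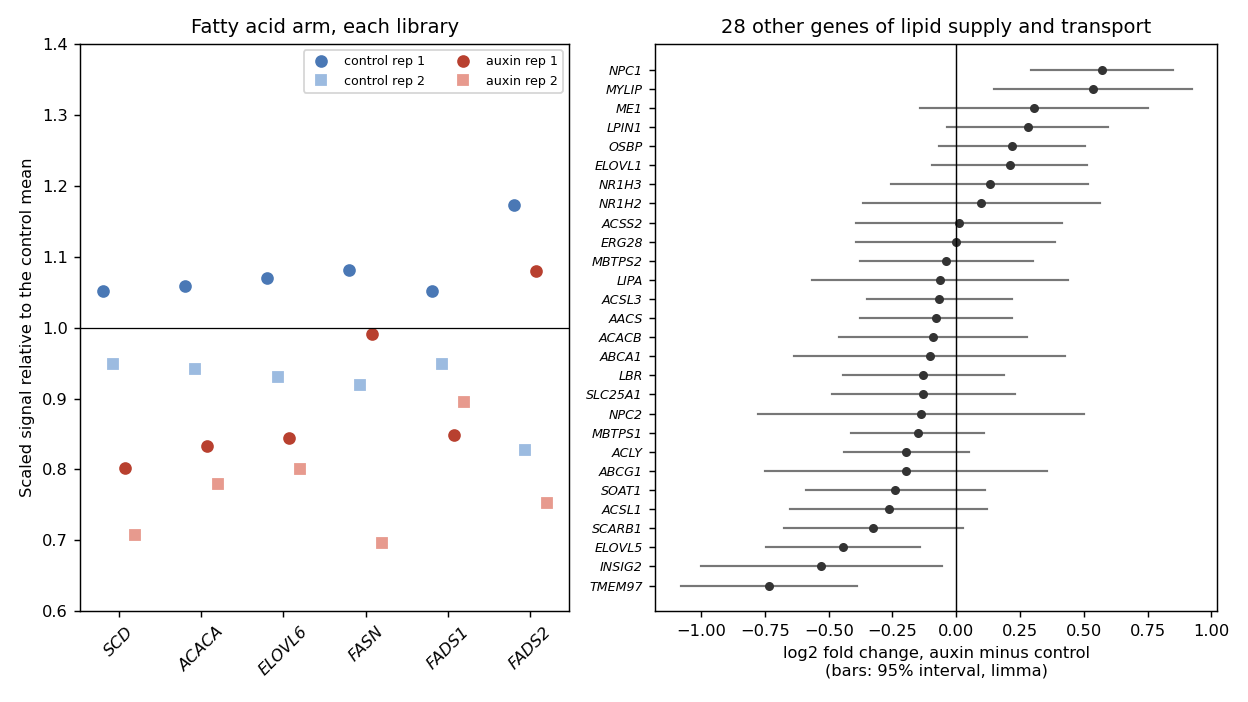
Left, the scaled signal of the 6 fatty acid genes in each library relative to the control mean (circles replicate 1, squares replicate 2, blue control, red auxin). Right, log2 fold changes of 28 other lipid genes with 95% intervals. The red points of SCD, ACACA, ELOVL6 and FADS1 lie below all their blue points, and NPC1 and TMEM97 lie at the ends of the right panel.

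The members differed between replicates of the same group in a common direction. Control replicate 2 was below control replicate 1 for 25 of 30 genes and auxin replicate 2 below auxin replicate 1 for 25, and 23 (76.7%) were lower in both, against 31.0% of all genes tested and 38.1% of expressed coding genes. The median log2 difference was -0.21 within control and -0.20 within auxin, each larger in size than the median of -0.11 between auxin and control. The replicate differences set 1 library against 1 and the latter means of 2 libraries, so their sizes are not directly comparable. Over the expressed coding genes the replicate medians were -0.034 and -0.013. INSIG1 had the widest gap, -0.65 in control and -0.62 in auxin, followed in control by MVD (-0.64), MVK (-0.55) and FADS2 (-0.50). PMVK, ACAT2 and EBP were higher in replicate 2 of both groups, and STARD4 and CYP51A1 were higher in control replicate 2 and lower in auxin replicate 2. Control replicate 1 was the highest of the 4 libraries for 20 members, and auxin replicate 2 the lowest for 17. What the replicates share was not tested, and the labels name no batch.

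**Figure D4:**
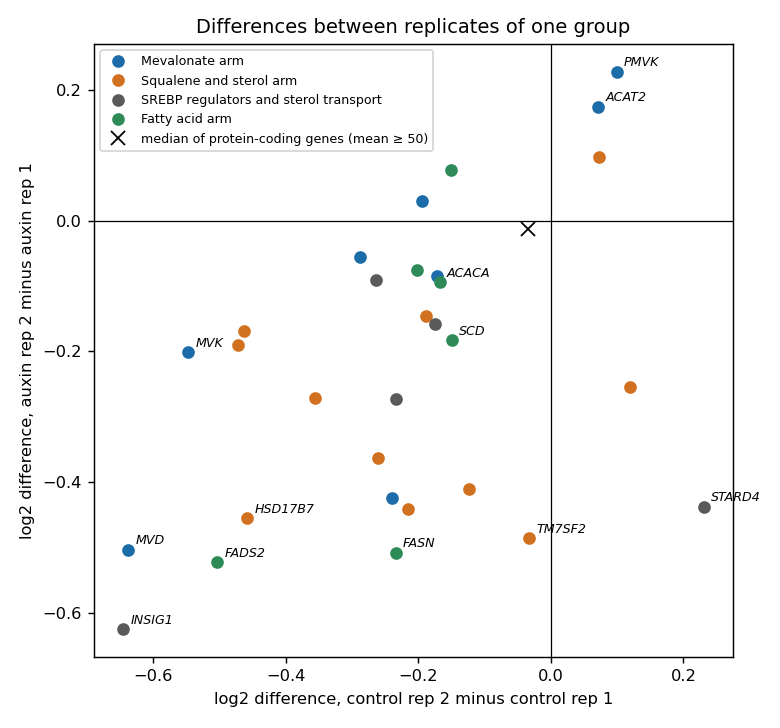
The log2 difference between the 2 control libraries (x) and between the 2 auxin libraries (y), replicate 2 minus replicate 1, with 1 point per gene coloured by role. The cross is the median of expressed coding genes. Of the 30 genes, 23 lie below 0 on both axes, with INSIG1 and MVD farthest out.

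Genes nearest to the members, at any distance, were examined because cohesin organises chromosomes into domains. Over all genes tested 0.732% passed the test, and of the 15994 expressed coding genes 87 passed as higher and 121 as lower. The nearest expressed coding genes that do not overlap a member numbered 58, of which 1 passed. It was ZNF185, 44713 bases from NSDHL on chromosome X, named after its value was seen, which rose from 4609 in control to 9246 in auxin (1.001 on the log2 scale, SE 0.13, adjusted p = 0.00821 by limma), while NSDHL had a log2 fold change of -0.083. On the scale as deposited, without further scaling, ZNF185 had a log2 fold change of 0.981 and an adjusted p of 1 by limma. At an unadjusted p under 0.05 there were 8 of the 58 (10.2% of all genes tested and 15.7% of expressed coding genes). Besides ZNF185, those higher in sign were CTSB (log2 fold change 0.46), TECTA (0.55) and SORL1 (0.61). CTSB lies 3220 bases from FDFT1, and TECTA and SORL1 lie 101281 and 138904 bases from SC5D, on either side. Those lower in sign were FAM222A (-0.53), SHANK2 (-0.29), SHISA8 (-0.44) and NREP (-0.59). FAM222A lies 115700 bases from MVK, SHANK2 607517 from DHCR7, SHISA8 2249 from SREBF2 and NREP 218156 from STARD4. Apart from ZNF185, their limma adjusted p was 0.168 or more. The neighbours of ACACA, AATF and TADA2A, had log2 fold changes of -0.25 and -0.17 and those of SCD, PKD2L1 and WNT8B, 0.46 and -0.099, none past the test. The median over the 58 neighbours was -0.028.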

How the data were processed

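The 4 EU-seq libraries, 2 per group, came from HCT116 RAD21-mAC cells. Groups and replicate numbers came from the sample titles. Human RNA (200 µg) was mixed with fly S2 mRNA (20 µg) before capture, per the labels' protocols. The submitters' processing notes name Trimmomatic 0.39, Bowtie2 2.4.5, deepTools 3.5.1 and the builds hg38 and dm6, with no roles. The deposited unit is a scaled signal per gene span. Each column's low values are whole multiples of 1 step, and the origin of the scaling is not given in the sources used here. Steps are not reads: of 307 to 440 genes of at least 10 kb with 1 to 3 steps in a library, 2 to 8 held a single one. Depth in reads is therefore unknown. The name of 1 control column is misspelt, and its replicate number decided the assignment. Starts in the file count from 0 and are printed 1 higher; 99.8% of 37753 symbols matched in RefSeq overlapped the GRCh38 gene of that symbol.

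A gene entered the test if 2 or more libraries held the equivalent of 10 (at the median library total) and its sum was 15 or more. Scaling used trimmed means of M-values, which left out 30% of ratios and 5% of levels at each end. Divisors were 0.999, 1.01, 0.816 and 1.21 for control replicates 1 and 2 and auxin replicates 1 and 2. The log2 of the scaled value plus 1 was fitted with limma 3.58.1 in R 4.3.3 (eBayes with trend, prior degrees of freedom 8.23), and p-values were adjusted over all 39464 genes by Benjamini and Hochberg's method, threshold 0.05. Fold changes on this scale understate those of low genes. The procedure was tested on simulated data. Tables were made with pandas 2.3.3 (Python 3.11.15) and figures with matplotlib 3.10.9.

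The members, gene lists and settings were chosen with earlier results of these data known. Full values are given for members with an unadjusted p under 0.05, the 2 of each role with the smallest p, and SREBF1, SREBF2, SCAP and INSIG1; of the 28 other genes, for the 3 with the smallest p. Values given for further members, for other genes and for neighbours were chosen after they were seen. Alternatives were other scalings, filters and pseudocounts, the replicate block, and leaving out each library.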

Additional observations from a re-analysis of the deposited data

How the results depend on the processing

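No member passed the limma test in any alternative except the replicate block, where 2 did, SCD (limma adjusted p = 0.00055) and ACACA (0.0117). The replicate numbers are shared by name alone, and the replicate differences of the groups correlated across genes at r = 0.231 (0.462 at a mean of at least 50). With that block 4273 genes passed, against 289 without it and 55 on the scale as deposited, and leaving out each library gave 132 to 681. The block also put TMEM97, NPC1 and ELOVL5 past the threshold, and ZNF185 was not past it on the deposited scale (limma adjusted p = 1, log2 fold change 0.981). The cause was not tested. The median of the members ran from -0.13 to -0.079 over the other settings. Of the members, 14 kept their sign in all 12 alternatives, 11 lower and 3 higher. The replicate block cannot change a sign, and only INSIG1 changed sign under a setting that kept all libraries. INSIG1 was at 0.0015, 0.033 and 0.0039 with median-ratio scaling, scaling by library total and no filter.

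The log2 fold changes of 16 members changed sign when 1 library was left out, and ran from -0.061 to 0.12 for ACAT2, -0.32 to 0.10 for HMGCS1, -0.25 to 0.31 for MVK, -0.27 to 0.37 for MVD, -0.036 to 0.17 for IDI1, -0.37 to 0.11 for FDFT1, -0.37 to 0.029 for SQLE, -0.15 to 0.051 for LSS, -0.35 to 0.12 for TM7SF2, -0.25 to 0.18 for MSMO1, -0.32 to 0.16 for NSDHL, -0.058 to 0.41 for HSD17B7, -0.19 to 0.074 for SREBF1, -0.33 to 0.33 for INSIG1, -0.13 to 0.30 for STARD4 and -0.38 to 0.13 for FADS2. With 1 library left in a group, it is assumed to vary like the other group. The unknown number of reads behind a value limits any statement on precision beyond the replicate spread.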
